A study of Mus musculus with 64 samples.

Results

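The genes examined here encode the hyaluronan-based matrix of the brain and the perineuronal net. They comprise the lecticans *Acan*, *Bcan*, *Ncan* and *Vcan*, the hyaluronan and proteoglycan link proteins *Hapln1*, *Hapln2* and *Hapln4*, the tenascins *Tnr* and *Tnc*, and the hyaluronan synthase *Has3*. They were chosen by name with earlier results of these data known, so the shares of all genes given below are for scale only. The Ensembl IDs of all 10 were found among the 18432 genes of the deposited table through the GENCODE vM21 annotation. Their levels were followed across region, age and genotype in mice that carry Arg87Cys in *Cyfip2*, a subunit gene of the WAVE complex that regulates actin.

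Lecticans are chondroitin sulfate proteoglycans that bind hyaluronan at one end and tenascins at the other, and link proteins fasten them to hyaluronan. Around some neurons, above all fast-spiking parvalbumin interneurons, these molecules condense after birth into perineuronal nets, in which aggrecan (*Acan*) is a defining component. Neurocan (*Ncan*), versican (*Vcan*) and tenascin-C (*Tnc*) are known as components of the immature matrix, whereas brevican (*Bcan*), tenascin-R (*Tnr*), *Hapln2* and *Hapln4* belong to the adult matrix, including the nodes of Ranvier.

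Knock-in (KI) mice carried *Cyfip2*+/R87C in the germline, with 1 altered and 1 normal allele and no tissue-specific driver, and were compared with wild-type (WT) littermates. All mice were C57BL/6N. Frontal cortex and hippocampus were sampled at postnatal week (PWK) 1, 7, 14 and 28, with 4 libraries in each of the 16 groups and 64 in all. The deposited normalized counts summed to between 29.2 and 32.6 M per library, which scaling has made alike, so precision was read from the spread between replicates. Nothing in the labels says that replicates are more than separate samples of a group, and p-values measure that spread only. In cortex at PWK 28, the only group for which its level is given here, *Cyfip2* itself averaged 25727 ± 3577 in KI against 34727 ± 608 in WT (SD, n = 4 each). A codon change is not checked by a level. The labelled regions differed in most of their markers. *Foxp2* lay between 429 and 526 in WT cortex and between 39.0 and 89.7 in WT hippocampus at PWK 28, and *Prox1* lay between 492 and 679 in cortex and between 3808 and 4037 in hippocampus. The cortex markers *Rorb* and *Cux2* were also higher in WT cortex at that age. *Fezf2*, likewise listed for cortex, did not separate the regions, with 814 to 1064 in cortex and 961 to 1044 in hippocampus. *Tle4* overlapped slightly, with 1554 to 1818 and 1421 to 1559. Among the hippocampal KI libraries at PWK 14, replicate 1 stood apart, with the microglial marker list summing to 37837 against 12782 to 19456 in the other 3. Fold changes of single genes in that group that rest on it are given with and without it, for the lists of other genes by a choice made after seeing the data. Family shares, medians of fold changes, marker sums and a fit of all 64 libraries described below are given only with it. These are whole-tissue libraries, in which fewer cells of a type and less RNA per cell cannot be told apart.

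In the genome, 3 of the 4 lecticans lie next to a link protein examined here, with no protein-coding gene between them. *Ncan* (chromosome 8, 70093085 to 70120873, minus strand) and *Hapln4* (chromosome 8, 70083457 to 70090862, plus strand) are 2.22 kb apart. *Vcan* (chromosome 13, 89655312 to 89742509, minus strand) and *Hapln1* (chromosome 13, 89539796 to 89611652, plus strand) are 43.7 kb apart, and *Bcan* (chromosome 3, 87987531 to 88000230, minus strand) and *Hapln2* (chromosome 3, 88021750 to 88027583, minus strand) 21.5 kb. *Acan* (chromosome 7, 79053483 to 79115099, plus strand) adjoins *Hapln3*, which was measured but is not 1 of the 10. *Tnr* lies on chromosome 1 (159523769 to 159931729, plus strand), *Tnc* on chromosome 4 (63959785 to 64047015, minus strand) and *Has3* on chromosome 8 (106870242 to 106884566, plus strand). All positions refer to GRCm38.

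The promoters of 4 of the 5 genes that were higher in KI mice in both regions at PWK 28 are shown because these genes were called in the same direction in the same comparisons. The sequences are from RefSeq on GRCm38.p6, run 5′ to 3′ on the gene's own strand and hold the 250 bases before the start and the 50 from it, with motif matches in capitals. RefSeq promoters were given for 8 of the 10 genes, and not for *Hapln4* or *Has3*. The *Hapln1* start in RefSeq lies 840 bases from that of the GENCODE gene.
Tnc, chr4:64046966-64047265, minus strand: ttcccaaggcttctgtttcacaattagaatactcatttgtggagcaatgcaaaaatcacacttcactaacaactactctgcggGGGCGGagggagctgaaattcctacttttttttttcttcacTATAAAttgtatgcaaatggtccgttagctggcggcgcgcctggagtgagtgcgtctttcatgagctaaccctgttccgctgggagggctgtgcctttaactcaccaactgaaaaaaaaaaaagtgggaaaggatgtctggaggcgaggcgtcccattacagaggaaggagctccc
Ncan, chr8:70120795-70121094, minus strand: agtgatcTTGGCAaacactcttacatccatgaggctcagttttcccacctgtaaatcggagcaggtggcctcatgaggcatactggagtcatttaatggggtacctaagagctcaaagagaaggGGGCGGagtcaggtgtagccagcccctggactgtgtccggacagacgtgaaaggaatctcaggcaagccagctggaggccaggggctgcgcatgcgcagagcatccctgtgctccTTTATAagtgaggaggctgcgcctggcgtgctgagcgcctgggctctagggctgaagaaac
Vcan, chr13:89742463-89742762, minus strand: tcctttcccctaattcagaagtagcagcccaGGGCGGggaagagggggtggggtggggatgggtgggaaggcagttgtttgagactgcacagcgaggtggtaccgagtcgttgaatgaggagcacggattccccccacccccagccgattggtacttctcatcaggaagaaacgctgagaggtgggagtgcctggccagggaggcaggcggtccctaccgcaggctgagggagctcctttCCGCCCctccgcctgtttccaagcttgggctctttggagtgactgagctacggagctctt
Hapln1, chr13:89540386-89540685, plus strand: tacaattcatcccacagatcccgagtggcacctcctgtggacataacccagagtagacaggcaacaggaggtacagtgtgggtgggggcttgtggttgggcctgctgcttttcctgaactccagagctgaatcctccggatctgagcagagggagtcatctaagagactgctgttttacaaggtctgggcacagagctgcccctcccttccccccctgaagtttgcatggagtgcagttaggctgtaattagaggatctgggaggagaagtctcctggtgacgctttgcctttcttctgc

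Searched on both strands were the AP-1 motif written TGANTCA, the CRE written TGACGTCA, the STAT motif written TTCNNNGAA, the TATA box written TATAAA, the GC box written GGGCGG, an NFI site written TTGGCA and the E-box written CACGTG. None of these overlapped another in the 4 promoters. The *Tnc* promoter held a TATA match and a GC box. The *Ncan* promoter held a TATA match, a GC box and an NFI site, the *Vcan* promoter 2 GC boxes, and the *Hapln1* promoter none of the 7 motifs. Of 32851 promoters of the same length, 13.6% held TATA, 35.7% the GC box and 14.1% the NFI site. AP-1, CRE, STAT and the E-box, held by 7.81%, 1.79%, 8.30% and 7.15%, were in none of the 4. These matches are a description of the letters only.

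The WT levels were described first, because they set the background for the genotype comparisons. Per kb of exon sequence, *Ncan* was the highest of the 10 at PWK 1, with 2869.9 ± 108 normalized counts per kb (SD, n = 4) in cortex and 3985 ± 108 in hippocampus. From PWK 7 on *Bcan*, made mainly by astrocytes and oligodendrocyte lineage cells, was the highest, with 1298 ± 112 per kb in cortex and 1647 ± 83.3 in hippocampus at PWK 28, followed by *Ncan* with 1034 ± 32.9 and 802 ± 26.4. *Hapln4* and *Tnr* came next and lay within each other's spread in cortex at PWK 28, with 733 ± 58.7 and 707 ± 26.0 per kb. In hippocampus they were at 608 ± 51.5 and 659.9 ± 30.8. *Hapln2*, *Hapln1* and *Vcan* followed in that order. *Acan*, *Tnc* and *Has3* were the lowest from PWK 7 on. At PWK 28 *Acan* was at 23.0 ± 7.83 per kb in cortex and 22.2 ± 2.72 in hippocampus, where *Tnc* was at 19.0 ± 2.70 and *Has3* at 17.9 ± 1.97, and of these *Tnc* and *Has3* lay within 1 SD of each other. At PWK 1 the lowest was *Hapln2* in both regions, with 5.68 ± 2.30 per kb in cortex and 4.37 ± 0.826 in hippocampus.

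**Figure D1:**
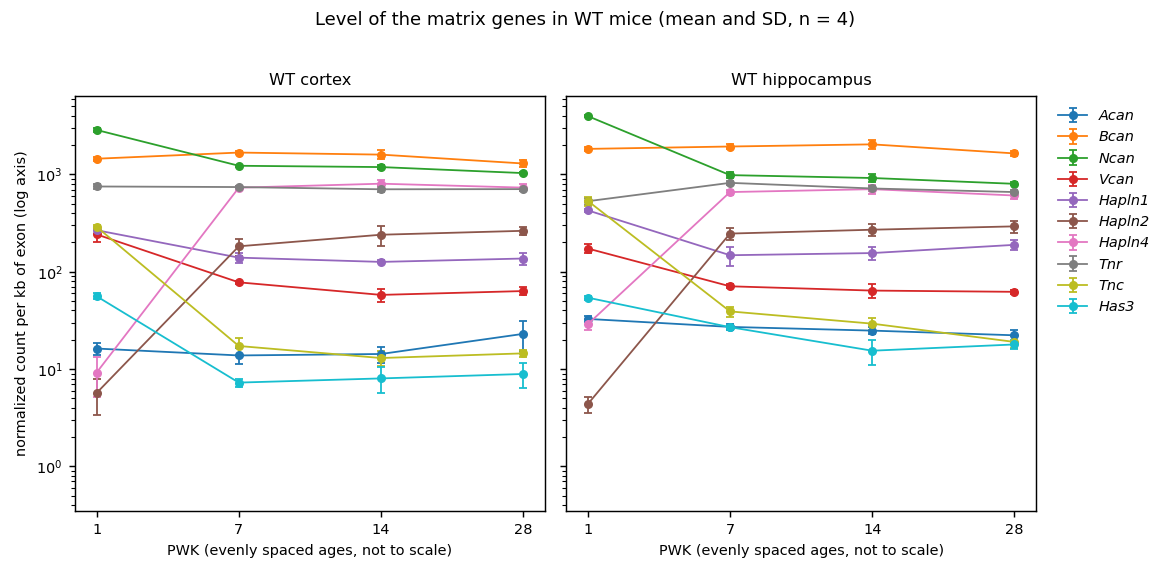
Normalized counts per kb of exon (log axis) of the 10 genes in WT cortex and hippocampus against PWK, as means with SD bars of 4 libraries. *Hapln4* and *Hapln2* climb between PWK 1 and 7, while *Tnc*, *Has3*, *Ncan*, *Vcan* and *Hapln1* decline, and the lines change less after PWK 7.

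Between PWK 1 and 7 transcripts of *Hapln2* and *Hapln4* rose and those of *Tnc*, *Has3*, *Vcan*, *Ncan* and *Hapln1* fell in both WT regions. In cortex 3 of the 10 genes rose and 5 fell, where 65.3% of all genes tested were called at an adjusted p under 0.05 in limma (32.5% higher and 32.7% lower). *Hapln4* rose from 58.1, 22.4, 36.2 and 27.8 to 2832, 2713, 2901 and 3043 normalized counts in the 4 WT cortices (log2 fold change 6.36, SE 0.22, adjusted p = 4.42e-10). *Hapln2* rose from a range of 5.65 to 17.5 to a range of 378 to 559.9 (log2 fold change 5.0). The third to rise was *Bcan*, by 0.21 on the log2 scale. *Tnc*, a hexameric glycoprotein of growing and injured tissue, fell from 2149.6, 2172, 2277 and 2416 to 139.7, 153, 95.1 and 149 (log2 fold change -4.08, SE 0.13, adjusted p = 2.41e-10). *Has3*, *Vcan*, *Ncan* and *Hapln1* also fell in cortex, with log2 fold changes of -2.92, -1.62, -1.22 and -0.94. *Tnr* (log2 fold change -0.02, adjusted p = 0.737) and *Acan* (-0.24, adjusted p = 0.203) did not pass the test.

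In WT hippocampus 3 genes rose and 6 fell over the same weeks, against 61.3% of all genes (30.9% higher and 30.4% lower). *Hapln2* rose by 5.7 (SE 0.17, adjusted p = 4.86e-10) and *Hapln4* by 4.51 (SE 0.09, adjusted p = 6.00e-11) on the log2 scale. *Tnr*, which crosslinks lecticans in nets, rose here by 0.63 (SE 0.06, adjusted p = 2.56e-06). *Tnc* fell to 304 ± 36.1 from 4161 ± 443 (SD, n = 4), and *Ncan* to 7089 ± 513 from 28670.0 ± 779. *Hapln1*, *Vcan* and *Has3* fell with log2 fold changes of -1.56, -1.28 and -1.0. *Acan* fell least (log2 fold change -0.27, SE 0.09, adjusted p = 0.0229), a call lost in 1 fit of all 64 libraries (adjusted p = 0.241) and without PWK 1 replicate 3 (adjusted p = 0.0726) or PWK 7 replicate 1 (0.0633), and *Bcan* did not pass (adjusted p = 0.154).

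Between PWK 7 and 28 the largest WT change among the 10 genes was that of hippocampal *Tnc*. In WT cortex *Hapln2* (0.54) and *Acan* (0.69) rose and *Bcan* (-0.38), *Vcan* (-0.30) and *Ncan* (-0.25) fell on the log2 scale, where 22.2% of all genes were called (10.9% higher and 11.4% lower). The *Acan* values at PWK 28 were 127, 123, 192 and 245. Replicates 1 and 2 lay within the PWK 7 range of 87.2 to 130.4, and the other 2 above it. The *Acan* call (adjusted p = 0.0399) was lost on leaving out any of 5 libraries, PWK 7 replicates 1, 2 and 4 and PWK 28 replicates 3 and 4, with adjusted p between 0.0721 and 0.102. In 1 fit of all 64 libraries, which shares 1 estimate of the spread, the cortical *Hapln2* (0.147) and *Vcan* (0.28) calls were lost. In WT hippocampus no gene rose and 6 fell, against 14.7% of all genes (6.35% higher and 8.38% lower). They were *Tnc* (-1.04), *Has3* (-0.59), *Tnr* (-0.31), *Ncan* (-0.29), *Bcan* (-0.24) and *Vcan* (-0.19). The fit of all 64 libraries kept *Ncan* and *Tnr* and lost *Tnc* (adjusted p = 0.086), *Has3* (0.0753), *Bcan* (0.0657) and *Vcan* (0.569). With the group libraries alone, the *Vcan* call was lost on leaving out any 1 of the 8 libraries, with adjusted p up to 0.12.

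*Bcan*, *Ncan* and *Tnc* were called between the WT regions at every age. Of the 10 genes, 8, 8, 6 and 6 were called between hippocampus and cortex at PWK 1, 7, 14 and 28, where 34.7%, 40.8%, 34.6% and 37.8% of all genes were. *Bcan* was higher in hippocampus at all 4 ages, by 0.21 to 0.35 on the log2 scale, and so was *Tnc*, by 0.88, 1.17 and 0.38 at PWK 1, 14 and 28 and by slightly more at PWK 7. At PWK 28 the *Tnc* call (adjusted p = 0.0373) was lost without any of 6 of the 8 libraries, with adjusted p of 0.0503 to 0.11, and held without cortex replicate 1 or hippocampus replicate 2. *Ncan* was higher in hippocampus at PWK 1 (0.47) and lower from PWK 7 on (-0.32, -0.38 and -0.37). *Acan* was higher in hippocampus at PWK 1, 7 and 14 (log2 differences of 1.01, 0.98 and 0.81), and the 95% interval of its difference at PWK 28 was -0.45 to 0.46. *Has3*, a synthase of shorter hyaluronan chains, was higher in hippocampus from PWK 7 on, by 0.94 to 1.87. *Hapln4* was higher in hippocampus at PWK 1 (1.7) and lower at PWK 7 (-0.15) and 28 (-0.27). *Hapln1* was higher in hippocampus at PWK 1, 14 and 28 (0.68, 0.29 and 0.47) and *Hapln2* at PWK 7 (0.44). *Tnr* was lower in hippocampus at PWK 1 (-0.51) and higher at PWK 7 (0.14), and *Vcan* was lower at PWK 1 (-0.47). On leaving out 1 of the 8 libraries at a time, the *Hapln4* call at PWK 7 (adjusted p = 0.0392) was lost without cortex replicate 1, 3 or 4 or hippocampus replicate 1, 3 or 4 (adjusted p up to 0.111). The *Hapln2* call at PWK 7 was lost without cortex replicate 1, 3 or 4 or hippocampus replicate 4 (up to 0.0625), and the *Hapln1* call at PWK 14 without cortex replicate 1, 2 or 3 or hippocampus replicate 1 or 4 (up to 0.103). The fit of all 64 libraries lost *Bcan* (0.0543), *Hapln2* (0.187), *Hapln4* (0.546) and *Tnr* (0.191) at PWK 7, which left 4 of 8. It also lost *Tnc* at PWK 1 (0.0943) and 28 (0.519), *Hapln1* at PWK 14 (0.0798) and *Hapln4* at PWK 28 (0.255).

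The KI mice were then compared with WT littermates at each age, since the study asked how the brain of KI mice changes with age as seizures develop. At PWK 28 *Hapln4*, *Tnc*, *Vcan*, *Hapln1* and *Ncan* were higher and *Has3* lower in KI mice in both regions, and *Acan* was higher in hippocampus. At PWK 14 *Hapln4* was higher in KI cortex, and *Tnc*, *Acan* and *Ncan* were higher and *Bcan* lower in KI hippocampus. *Tnr* and *Hapln2* were called in none of the 8 comparisons. In cortex 1 of the 10 genes was called at PWK 14 and 6 at PWK 28, where 5.18% and 22.2% of all genes were called, and in hippocampus 4 and 7, where 15.6% and 15.8% were. The cortical calls were 1 higher and 0 lower at PWK 14, beside 2.48% of all genes higher and 496 genes lower, and 5 and 1 at PWK 28, beside 12.2% higher and 1845 genes lower. The hippocampal calls were 3 higher and 1 lower, beside 7.64% higher and 1463 genes lower, and 6 and 1, beside 8.92% higher and 1271 genes lower. At PWK 14 and 28 the 10 log2 fold changes had a median of 0.15 and 0.36 for cortex and, for hippocampus, of 0.47 and 0.43, beside a median within 0.01 of 0 over all genes tested. Complete separation of the 4 KI from the 4 WT libraries was seen for 2, 5, 4 and 7 of the 10 genes in these comparisons, where 14.2%, 25.8%, 23.8% and 21.5% of all genes showed this.

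**Figure D2:**
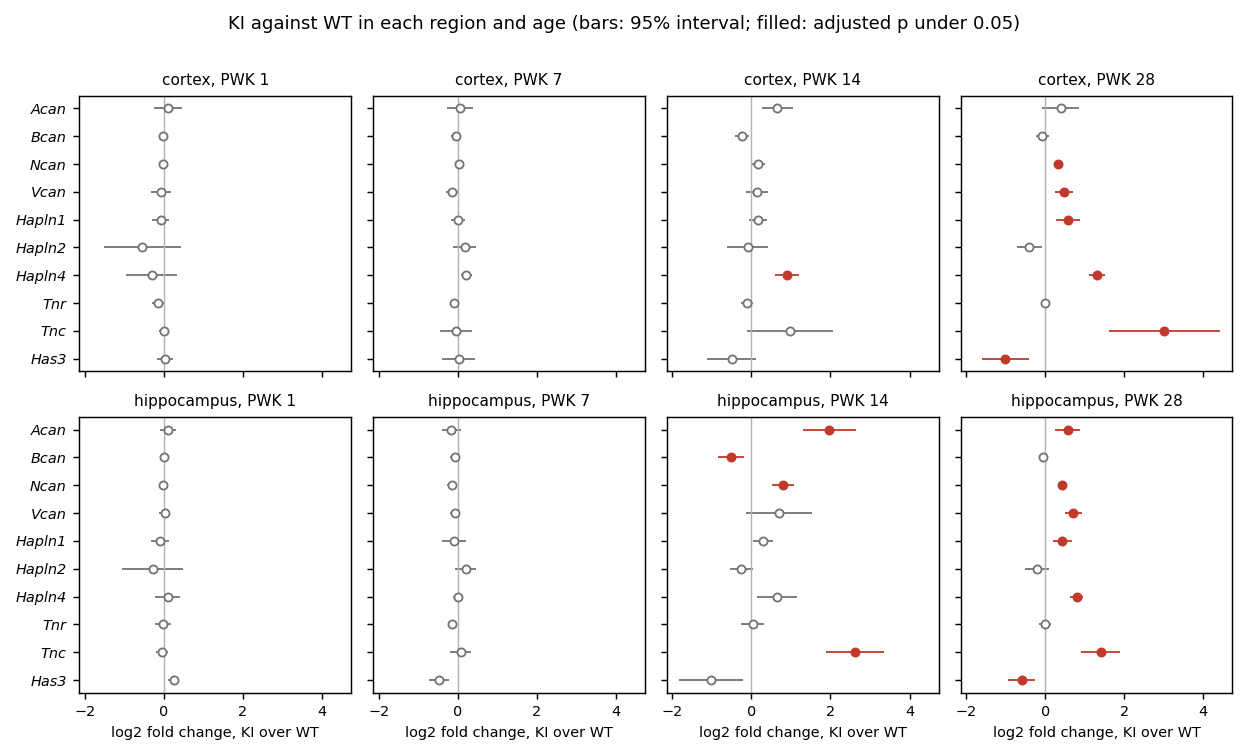
Log2 fold change of KI over WT for the 10 genes in each region and age, with 95% intervals from limma on 4 KI and 4 WT libraries; filled red points passed an adjusted p of 0.05. No point is filled at PWK 1 or 7, though some lie away from 0, such as cortical *Hapln2* at PWK 1 (ratio of means 0.668). *Tnc*, *Acan*, *Hapln4* and *Ncan* lie to the right of 0 at PWK 14 or 28.

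At PWK 1 and 7 none of the 10 genes was called by limma in either region, and in cortex 0 and 2 and in hippocampus 1 and 3 had an unadjusted p under 0.05. Of all genes, 0.00546% and 0.00545% were called for cortex and, for hippocampus, 0.0109% and 0.0218%. The *Hapln4* values in KI cortex at PWK 7 were 2865, 3506, 3494 and 3552 against 2832, 2713, 2901 and 3043 in WT (log2 fold change 0.22, adjusted p = 0.387). Of the KI libraries all but replicate 1 lay above all WT libraries, but the difference did not pass. *Has3* in KI hippocampus at PWK 7 lay at 114, 110.3, 148 and 124, below all WT values of 156 to 181, but the log2 difference of -0.47 did not pass (adjusted p = 0.561). At PWK 1 it was the other way, with 395 to 423 in KI and 324 to 361 in WT hippocampus (log2 fold change 0.24, adjusted p = 0.808). *Ncan* was the only other gene without overlap at these ages, in hippocampus at PWK 7 (-0.14, adjusted p = 0.772). Of all genes, 3.15% and 4.62% showed no overlap in cortex at these ages and 3.26% and 3.87% in hippocampus.

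Among the link proteins, *Hapln4*, which binds brevican in perineuronal nets, differed most in cortex. Its normalized counts in cortex at PWK 14 were 8130.2, 5809, 4595 and 5416 in KI and 3150.4, 3529.8, 2993 and 2952 in WT libraries (log2 fold change 0.89, SE 0.14, adjusted p = 0.00673). All KI libraries lay above all WT libraries, and the call held without any 1 of the 8. At PWK 28 the values were 7853, 5921, 7661 and 7126 in KI and 2835, 3213, 2754 and 2705 in WT cortex, a ratio of means of 2.48 (log2 fold change 1.31, SE 0.09, adjusted p = 5.19e-05). The 4 KI libraries again lay clear of the WT range.

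Hippocampal *Hapln4* at PWK 28 was at 3721, 4070.2, 4677 and 4151 in KI and 2264, 2689, 2284 and 2311 in WT libraries (log2 fold change 0.80, SE 0.08, adjusted p = 9.80e-05). The groups did not overlap here either. At PWK 14 the KI values of 2647, 5380.4, 6285 and 3888 were widely spread, and the lowest, replicate 1, fell within the WT range of 2553 to 3212. The log2 fold change of 0.65 did not pass (adjusted p = 0.0882), and without this library it was 0.88 (adjusted p = 0.00387).

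*Hapln1*, the link protein of most perineuronal nets, was at 1289.8, 924, 1253 and 1368 in KI and 931, 867, 764 and 669 in WT cortex at PWK 28 (log2 fold change 0.58, SE 0.14, adjusted p = 0.0135). KI replicate 2 lay below the highest WT library, and the other 3 lay above all 4. Its hippocampal values at PWK 28 were 1327, 1789.8, 1596 and 1346 in KI and 984, 1278, 1051 and 1153 in WT libraries (log2 fold change 0.44, SE 0.11, adjusted p = 0.0187). The groups did not overlap, with the lowest KI library just above the highest WT library. This call was lost without WT replicate 1 (adjusted p = 0.060) or WT replicate 3 (0.0509). At PWK 14 *Hapln1* did not pass in cortex (0.17, adjusted p = 0.384) or hippocampus (0.29, adjusted p = 0.0997).

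*Hapln2*, a link protein of oligodendrocytes found at nodes of Ranvier, was not called. Its largest adult difference was in cortex at PWK 28, where it was at 506, 616, 414 and 385 in KI and 668, 673, 575 and 585 in WT libraries (log2 fold change -0.40, adjusted p = 0.0651). KI replicate 2 lay inside the WT range and the other 3 below it. Without that library the value was -0.53 (adjusted p = 0.00717). It also passed after scaling each library to its total (-0.45, adjusted p = 0.0464).

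**Figure D3:**
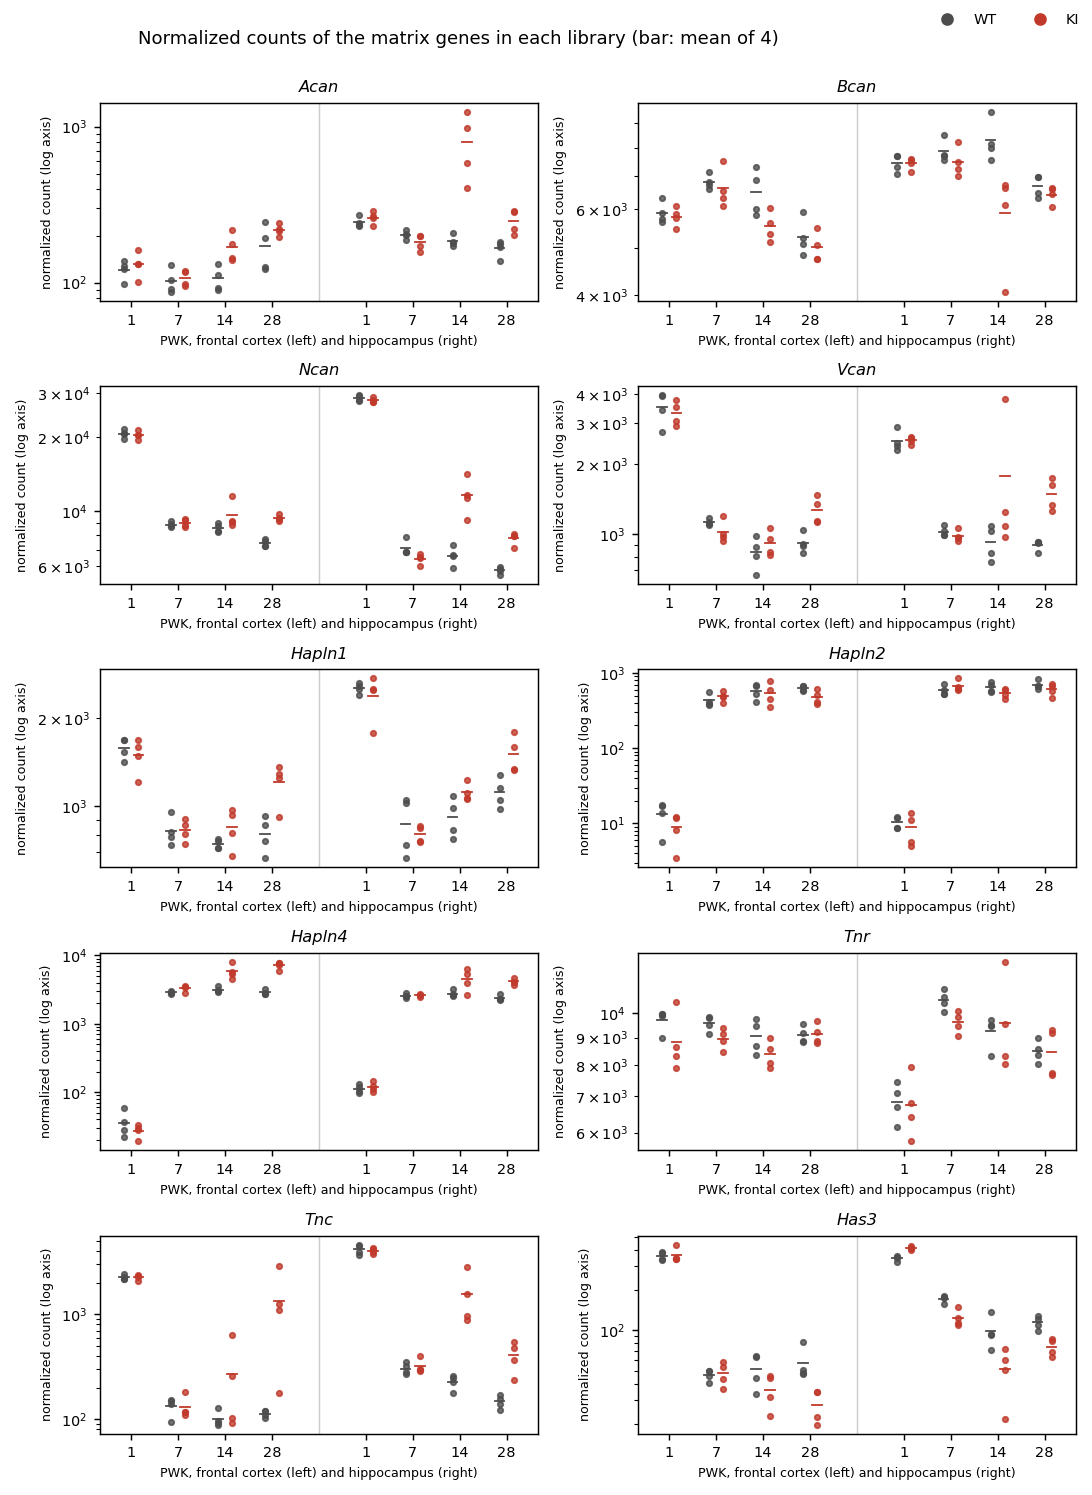
Normalized counts (log axes) of the 10 genes in each of the 64 libraries against PWK, cortex on the left and hippocampus on the right of each panel, with WT in grey, KI in red and bars at the means of 4. KI and WT points mostly overlap at PWK 1 and 7, except hippocampal *Has3* at both ages and hippocampal *Ncan* at PWK 7. At PWK 14 and 28 the KI means of *Hapln4*, *Tnc*, *Ncan* and *Acan* lie above the WT means.

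Of the lecticans, *Acan* had the largest rise, and it was in hippocampus at PWK 14. Its normalized counts there were 972, 405, 1236 and 585 in KI and 182, 171, 180.2 and 209 in WT libraries, a ratio of means of 4.31 (log2 fold change 1.97, SE 0.30, adjusted p = 0.00339). KI replicates 1 and 3 were the highest and replicate 2 the lowest, and all 4 lay above the WT values. Without KI replicate 1 the log2 fold change was 1.84 (adjusted p = 0.0037).

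At PWK 28 hippocampal *Acan* was at 289, 221, 283 and 201 in KI and 183, 168, 137 and 176 in WT libraries (log2 fold change 0.57, SE 0.15, adjusted p = 0.0228). The groups did not overlap, but the call was lost without KI replicate 1 (adjusted p = 0.062), KI replicate 3 (0.0603) or WT replicate 3 (0.0599). Cortical *Acan* at PWK 14 was at 177, 144, 140.3 and 217 in KI and 112, 133, 92.1 and 89.9 in WT libraries. These did not overlap, but the difference of 0.66 missed the threshold (SE 0.18, adjusted p = 0.0585). At PWK 28 the cortical WT values of 123 to 245 enclosed all KI values of 196 to 240.3, with a log2 fold change of 0.39 (95% interval -0.07 to 0.86).

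*Ncan* was higher in KI mice in 3 of the 4 adult comparisons at PWK 14 and 28. Its hippocampal values at PWK 14 were 14132, 11369.6, 11639 and 9242 in KI and 6605, 6642, 5906 and 7331 in WT libraries (log2 fold change 0.80, SE 0.12, adjusted p = 0.00333). At PWK 28 it was at 7938, 8125, 7933 and 7122 in KI and 5837, 5973, 5521 and 5750.0 in WT libraries (log2 fold change 0.43, SE 0.05, adjusted p = 0.000308). The groups did not overlap at either age. KI replicate 1 was the highest at PWK 14, and without it the log2 fold change was 0.70 (adjusted p = 0.0016).

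Cortical *Ncan* at PWK 28 was at 9771, 9114, 9279.8 and 9363 in KI and 7239, 7236, 7584 and 7695 in WT libraries, a small difference with little spread and no overlap (log2 fold change 0.33, SE 0.05, adjusted p = 0.00115). At PWK 14 it was at 11557, 8789, 9145 and 9035 in KI and 8345, 8744, 8269 and 8953 in WT libraries. Only KI replicate 1 stood well above WT, and the log2 fold change of 0.16 did not pass (adjusted p = 0.309).

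*Vcan*, a large proteoglycan of the juvenile matrix that oligodendrocyte precursors also make, was called at PWK 28 only. In hippocampus it was at 1621, 1330.4, 1253 and 1742 in KI and 926, 926, 915 and 834 in WT libraries (log2 fold change 0.71, SE 0.10, adjusted p = 0.000966). In cortex it was at 1469, 1140.2, 1125 and 1342 in KI and 907, 1043, 829 and 887 in WT libraries (log2 fold change 0.46, SE 0.10, adjusted p = 0.0102). KI and WT did not overlap in either region. At PWK 14 in hippocampus, KI replicate 1 was at 3787 against 759.9 to 1090.0 in WT, the other KI libraries, at 977 to 1246, partly overlapped it, and the log2 fold change of 0.71 (adjusted p = 0.229) became 0.26 without it (adjusted p = 0.22). *Vcan* overlaps the antisense transcript Gm4117, which was also in the table.

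*Bcan* alone among the lecticans was lower in KI mice, in hippocampus at PWK 14. Its values were 4066, 6643, 6121 and 6706 in KI and 8008, 8136, 7568 and 9466 in WT libraries, without overlap (log2 fold change -0.52, SE 0.15, adjusted p = 0.0472). KI replicate 1 was far below the other 3. Without KI replicate 1, the lowest library, it held with a smaller value of -0.35 (adjusted p = 0.0151). It was lost without KI replicate 3 (adjusted p = 0.0759) and without WT replicates 1, 2, 3 or 4 (adjusted p of 0.101, 0.103, 0.0688 and 0.125), and after a correction for GC content and length (0.0662). At PWK 28 *Bcan* differed by -0.07 in cortex (95% interval -0.23 to 0.09) and by -0.06 in hippocampus (95% interval -0.17 to 0.05).

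*Tnc* showed the largest changes of the 10 genes. Its cortical values at PWK 28 were 2867, 179.5, 1250.1 and 1099 in KI and 119.8, 102, 109.6 and 119.5 in WT libraries, a ratio of means of 12.0 (log2 fold change 3.02, SE 0.64, adjusted p = 0.00802). All KI libraries exceeded all WT libraries, but KI replicate 2 lay near the WT range and replicate 1 far above the rest. Without KI replicate 2, the lowest, the log2 fold change was 3.8, and without KI replicate 1, the highest, 2.47 (adjusted p = 0.0138).

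In hippocampus *Tnc* was at 2838, 882, 1559 and 969 in KI and 229, 247, 179.8 and 256 in WT libraries at PWK 14 (log2 fold change 2.62, SE 0.32, adjusted p = 0.00162), and without KI replicate 1 the value was 2.28. At PWK 28 it was at 482, 366, 547 and 238 in KI and 172, 124, 139 and 157 in WT libraries (log2 fold change 1.4, SE 0.22, adjusted p = 0.00207). The groups did not overlap at either age. Cortical *Tnc* at PWK 14 was at 629, 256, 103 and 92.9 in KI, where 2 libraries were high and 2 lay within the WT range of 89.1 to 128, and the log2 fold change of 0.98 did not pass (adjusted p = 0.29). For scale, the WT level at PWK 1 was 2254 ± 122 in cortex and 4161 ± 443 in hippocampus (SD, n = 4).

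*Tnr*, the other tenascin, was close to WT. Its cortical level at PWK 28 averaged 9131 ± 389.7 in KI libraries against 9103 ± 334 in WT (SD, n = 4 each), with a 95% interval of the log2 fold change of -0.11 to 0.12, and in hippocampus at 8463 ± 898 and 8491 ± 396, with an interval of -0.16 to 0.14. In hippocampus at PWK 14 KI replicate 1 was at the top of the KI range of 8035 to 12449, and WT ran from 8335 to 9690.1 (interval -0.25 to 0.32). Adjusted p-values lay between 0.367 and 0.964 in these 4 comparisons at PWK 14 and 28.

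*Has3*, the hyaluronan synthase, was lower in KI mice in both regions at PWK 28, from levels whose WT means were the lowest per kb of the 10 at that age. Cortical *Has3* was at 19.8, 34.5, 22.6 and 34.5 in KI and 48.3, 81.4, 47.1 and 50.4 in WT libraries, a ratio of means of 0.490 (log2 fold change -1.01, SE 0.27, adjusted p = 0.0228). In hippocampus it was at 63.4, 83.8, 85.8 and 68.6 in KI and 121, 127, 98.9 and 109.8 in WT libraries (log2 fold change -0.60, SE 0.15, adjusted p = 0.023). All KI libraries lay below all WT libraries in both regions. The cortical call was lost without KI replicate 1, KI replicate 3 or WT replicate 2 (adjusted p = 0.0536, 0.0599 and 0.0663). The hippocampal call was lost without KI replicate 1 or WT replicate 1, 2 or 4 (adjusted p = 0.0567, 0.0695, 0.0689 and 0.0516), with the replicate number as a block (0.0519) and in the fit of all 64 libraries (0.0564). Hippocampal *Has3* at PWK 14 was at 21.8, 50.2, 71.8 and 60.3 in KI and 70.9, 92.3, 93.3 and 138 in WT libraries (log2 fold change -1.02, adjusted p = 0.087), where only KI replicate 3 reached the WT range. Without KI replicate 1, the lowest, the log2 fold change was -0.66 (adjusted p = 0.0854). *Has3* overlaps the antisense gene *Chtf8*, also in the table. The study's methods name a stranded library kit, but whether reads were assigned by strand is not given in the sources used here.

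The neighbouring pairs were then set side by side at PWK 28. *Ncan* and *Hapln4* were both higher in KI mice in both regions, and so were *Vcan* and *Hapln1*, whereas neither *Bcan* nor *Hapln2* was called. *Hapln3*, the neighbour of *Acan*, differed by -0.04 (95% interval -0.67 to 0.60) in cortex and -0.18 (-0.69 to 0.33) in hippocampus on the log2 scale.

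The makeup of each family, from levels per kb of exon, is given next. In normalized counts per kb, *Ncan* made up 41.4 to 58.5% of the summed lectican level in KI and 29.5 to 30.8% in WT hippocampus at PWK 14, and 35.9 to 41.2% and 29.9 to 32.8% at PWK 28. *Bcan* made up 54.3 to 58.8% and 63.9 to 67.0% of it at PWK 28. The summed lectican level itself was 2739 to 2861 normalized counts per kb in KI and 2438 to 2632 in WT hippocampus at PWK 28. *Ncan* in cortex at PWK 28 made up 46.9 to 50.3% in KI and 39.6 to 45.2% in WT libraries. None of these ranges overlapped.

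*Hapln4* made up 78.4 to 83.5% of the summed level of *Hapln1*, *Hapln2* and *Hapln4* in KI and 62.2 to 65.7% in WT cortex at PWK 28, and 65.3 to 69.3% and 54.6 to 56.6% in hippocampus. The sum itself was 1925 to 2433 normalized counts per kb in KI and 1049 to 1249 in WT cortex. *Tnc* made up 3.13 to 35.1% of the tenascin sum in KI and 1.87 to 2.19% in WT cortex, beside 26.3 to 28.9% in WT cortex at PWK 1. These shares restate the levels above as proportions and carry no test of their own.

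**Figure D4:**
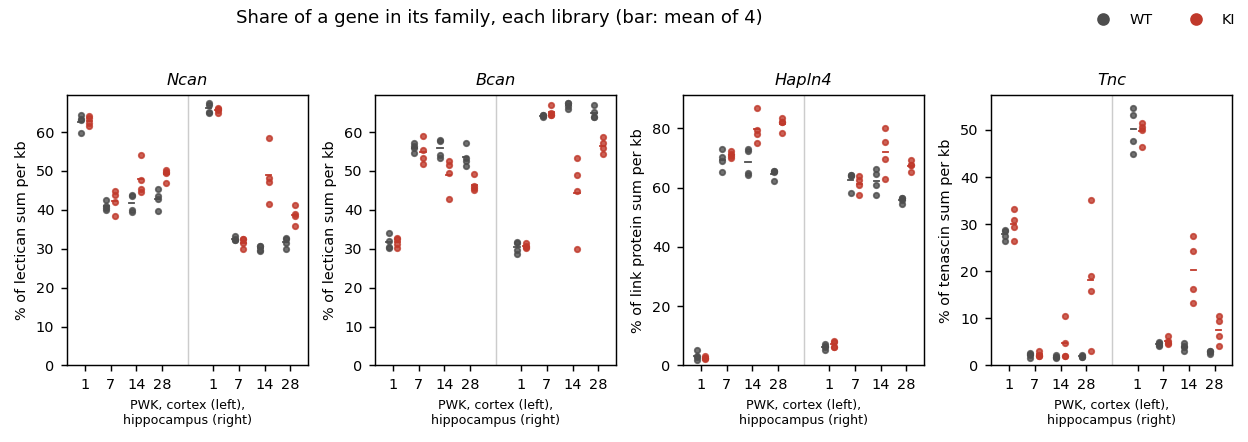
Share of *Ncan* and *Bcan* in the lectican sum, of *Hapln4* in the link protein sum and of *Tnc* in the tenascin sum (percent of normalized counts per kb) in each library against PWK, with WT in grey, KI in red and bars at the means of 4. At PWK 28 the KI points lie above WT for *Ncan*, *Hapln4* and *Tnc* and below WT for *Bcan* in both regions.

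Whether the KI effect differed between regions was tested as an interaction. At PWK 14, 1 of the 10 genes was called, where 2.85% of all genes were: the *Ncan* effect was larger in hippocampus, by 0.64 on the log2 scale (SE 0.15, adjusted p = 0.037), with 0.80 there and 0.16 in cortex. This call was lost in 11 of the 16 fits that left out 1 library (adjusted p up to 0.0776, without cortical KI replicate 2). The effect on *Acan* was 1.97 in hippocampus and 0.66 in cortex, a difference of 1.32 that missed the threshold (adjusted p = 0.0665). It passed in the fit of all 64 libraries (adjusted p = 0.000987) and without hippocampal KI replicate 2 (adjusted p = 0.012) or 4 (0.0484). For *Tnc* the difference of 1.64 (adjusted p = 0.201) passed without cortical KI replicate 1 (0.0233).

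At PWK 28, 1 gene was called, where 4.57% of all genes were: the *Hapln4* effect in hippocampus minus that in cortex was -0.51 (SE 0.13, adjusted p = 0.0291). This call was lost in 9 of 16 fits that left out 1 library, with adjusted p up to 0.0646, without hippocampal WT replicate 2, and in the fit of all 64 libraries (0.243). For *Tnc* the difference was -1.61 (adjusted p = 0.26), and without cortical KI replicate 2 it was -2.4 (adjusted p = 0.00102). For the other 8 genes the 95% intervals of the difference included 0.

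Interactions with age compared the KI effect at PWK 14 with that at PWK 7, and at PWK 28 with that at PWK 14, and both use the PWK 14 libraries. In hippocampus from PWK 7 to 14 the KI effect grew for *Tnc* by 2.55 (SE 0.37, adjusted p = 0.000626), for *Acan* by 2.14 (SE 0.34, adjusted p = 0.00107) and for *Ncan* by 0.93 (SE 0.14, adjusted p = 0.000768) on the log2 scale. These 3 of 10 genes stood beside 10.3% of all genes, and the 3 calls held without any 1 of the 16 libraries. *Hapln4* joined them without hippocampal KI replicate 1 of PWK 14 (0.87, adjusted p = 0.00241). In cortex 1 gene was called, where 3.18% of all genes were: *Hapln4* (0.68, SE 0.17, adjusted p = 0.0378), a call lost in 12 of 16 fits that left out 1 library, with adjusted p up to 0.0775, without WT replicate 4 of PWK 7. It was also lost with the replicate block (0.0556) and in the fit of all 64 libraries (0.15).

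Between PWK 14 and 28 limma called none of the 10 genes and 0 of all genes in either region, with 3 of the 10 in cortex and 4 in hippocampus at an unadjusted p under 0.05. The *Acan* effect in hippocampus changed by -1.41 (95% interval of the change -2.16 to -0.65, adjusted p = 0.155) and passed without KI replicate 2 of PWK 14 (adjusted p = 0.0458). The *Tnc* effect changed by 2.03 in cortex and -1.22 in hippocampus (adjusted p = 0.30 and 0.267). Leaving out KI replicate 2 of PWK 28 took the cortical *Tnc* value to 2.82 (adjusted p = 0.0257). Without cortical KI replicate 1 of PWK 14 *Ncan* (adjusted p = 0.0389) and *Hapln4* (0.0399) passed. The fit of all 64 libraries called *Tnc* in cortex (0.0278) and *Acan* (0.00334), *Ncan* (0.0264) and *Bcan* (0.027) in hippocampus.

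Other genes of the matrix were read from 4 lists, to be set beside the 5.18% and 22.2% of all genes called in KI cortex at PWK 14 and 28 and the 15.6% and 15.8% in hippocampus. Without hippocampal KI replicate 1 of PWK 14, which left 17.4% of all genes called there, every gene named below from a list in that comparison was still called in the same direction. Of 12 genes of hyaluronan metabolism and its receptors, 1 rose in KI cortex at PWK 14, 2 rose and 1 fell at PWK 28, and in hippocampus 3 rose at PWK 14 and 3 rose and 1 fell at PWK 28. The hyaluronan receptor *Cd44* rose in all 4, with 2412, 663, 672 and 687 in KI and 95.4, 128, 192 and 42.7 in WT hippocampus at PWK 14 (log2 fold change 3.2, SE 0.52, adjusted p = 0.00437), where KI replicate 1 was the highest and all KI libraries exceeded WT. Without replicate 1 the log2 fold change was 2.74. Its log2 fold change was 0.91 in cortex at PWK 14, 1.79 at PWK 28 and 1.38 in hippocampus at PWK 28. *Has2*, another hyaluronan synthase, rose from a low level in KI hippocampus at PWK 14, with 39.5 ± 30.4 in KI and 11.3 ± 3.53 in WT libraries (SD, n = 4 each). Its log2 fold change was 1.52 (adjusted p = 0.0444), and 1.08 (adjusted p = 0.0392) without KI replicate 1. *Has3* did not pass there, and the synthases were not tested against each other. *Cemip*, which binds and breaks down hyaluronan, fell at PWK 28 in cortex (-0.51) and hippocampus (-0.26), while *Cemip2* (0.36) rose in hippocampus and *Lyve1* (1.09) in cortex.

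Of 21 genes of chondroitin sulfate chain synthesis and sulfation, none was called in KI cortex at PWK 14 (2 with an unadjusted p under 0.05, beside 5.18% of all genes called) and 2 rose and 1 fell at PWK 28 (beside 22.2%). In hippocampus 5 rose and 3 fell at PWK 14 (beside 15.6%) and 4 rose and 3 fell at PWK 28 (beside 15.8%). The list had median log2 fold changes of -0.05 and 0.01 for cortex and, for hippocampus, of 0.05 and 0.02. *Dsel*, an epimerase that makes dermatan sulfate, rose in hippocampus at PWK 14 (0.84) and in cortex at PWK 28 (0.64). The 6-O-sulfotransferase *Chst3* rose (0.73) and the 4-O-sulfotransferase *Chst12* (-0.65) and the uronyl sulfotransferase *Ust* (-0.50) fell in hippocampus at PWK 14. *Chpf2* (0.38) rose and *B3gat3* (-0.25) fell in KI cortex of PWK 28. In hippocampus at PWK 28 *Chst7* (0.81) and *Chsy3* (0.60) rose and *Xylt2* (-0.30) and *Ust* (-0.26) fell. At PWK 28 the KI and WT libraries overlapped for *Dsel* and *Chpf2* in cortex and for *Ust* in hippocampus.

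Of 17 matrix proteases and inhibitors, 2 rose at PWK 14 and 3 at PWK 28 in KI cortex, with none falling, beside 5.18% and 22.2% of all genes called. In hippocampus 5 rose and 1 fell at PWK 14 (beside 15.6%) and 3 rose and 1 fell at PWK 28 (beside 15.8%). The metalloproteinase inhibitor *Timp2* rose in cortex at PWK 14 (0.83) and PWK 28 (1.29) and in hippocampus at PWK 28 (0.55). *Timp1*, another such inhibitor, was at 877, 63.8, 62.3 and 62.5 in KI and 2.10, 5.12, 6.46 and 3.12 in WT hippocampus at PWK 14 (log2 fold change 4.65, SE 0.81, adjusted p = 0.00594), with replicate 1 far above the other KI libraries. Its log2 fold change was 3.7 without replicate 1 (adjusted p = 0.000333), and it was higher at PWK 28 as well (1.95). Among proteases that cut lecticans, *Adamts5* rose (0.99) and *Adamts9* fell (-0.52) in hippocampus at PWK 14, *Adamts1* rose in cortex at PWK 28 (1.27), and *Adamts15* fell in hippocampus at PWK 28 (-0.60). *Mmp16* rose in cortex at PWK 14 (0.26).

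Of 19 matrix receptors and bound ligands, 3 rose and 2 fell at PWK 14 and 7 rose and 3 fell at PWK 28 in KI cortex, beside 5.18% and 22.2% of all genes called. In hippocampus 6 rose at PWK 14 (10 without KI replicate 1) and 9 at PWK 28, with none falling, beside 15.6% and 15.8%. *Nptx2*, a secreted pentraxin that gathers AMPA receptors at synapses within nets, rose in all 4, with 3153, 2837, 8970.4 and 4223 in KI and 468, 477, 434 and 512 in WT hippocampus at PWK 14 (log2 fold change 3.18, SE 0.30, adjusted p = 0.000623). Its log2 fold changes were 1.39 and 1.6 in cortex and 1.79 in hippocampus at PWK 28. In cortex at PWK 28 the KI and WT libraries overlapped, with 8135 ± 5760 and 2098 ± 188 (SD, n = 4 each, adjusted p = 0.0357 in limma). The receptor phosphatase *Ptprf* rose in cortex at PWK 28 (1.01) and in hippocampus at PWK 14 (1.03), while *Ptprs*, a receptor of chondroitin sulfate, fell in cortex at PWK 28 (-0.24) together with the Nogo receptor *Rtn4r* (-0.29). *Sema3a*, a guidance cue held in nets, rose in hippocampus at PWK 28 (0.65). *Cspg5* (-0.38) and *Cspg4* (-0.37), which are further brain proteoglycans, fell in cortex at PWK 14, where *Rtn4rl1* rose (0.53).

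Marker lists of cell types in the tissue moved with some of the results, and their part in them was not tested. Their counts stand beside 5.18% and 22.2% of all genes called in KI cortex at PWK 14 and 28, and 15.6% and 15.8% in hippocampus. For parvalbumin interneurons 5 of 10 markers rose and 1 fell in KI cortex at PWK 28, beside the *Hapln4* rise. *Pvalb* (0.39) was among those that rose, and the other markers called there are not named here. The list summed to 56733 to 67744 in KI and 46873 to 52363 in WT libraries. Such a sum adds normalized counts, so markers of high level weigh most, and it is not a measure of these cells alone. At PWK 14 in cortex 2 of the markers rose, with sums of 50563 to 60061 and 45652 to 46632. At PWK 14 in hippocampus, where *Acan* rose, 1 of the 10 rose and 1 fell, and the sums of 41628 to 47275 in KI enclosed those of 43685 to 44995 in WT libraries. Without KI replicate 1 of that group *Gad2* rose (0.52), *Kcnc1* fell (-0.29) and *Pvalb* did not pass (-0.27, adjusted p = 0.0985 in limma). At PWK 28 there 3 rose, with 44052 to 45582 and 39673 to 42266.

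For astrocytes 2 of 10 markers rose and 1 fell in KI hippocampus at PWK 14 (4 and 1 without KI replicate 1) and 5 rose at PWK 28, beside the rises of *Tnc* and *Ncan*. The list summed to 270155 to 365787 in KI and 213366 to 245367 in WT libraries at PWK 14 and to 271492 to 313868 and 216605 to 230501 at PWK 28. *Gfap*, an astrocyte filament gene raised in reactive astrocytes and part of these sums, was at 131431, 40059, 45879.7 and 47169 in KI and 8842, 8972, 7502 and 9231 in WT hippocampus at PWK 14 (log2 fold change 2.75, and 2.36 without KI replicate 1). The sums were not taken without *Gfap* or without KI replicate 1. Their separation at PWK 14 therefore does not describe the other astrocyte markers. Without that library *Aqp4* (0.87), *Slc1a2* (0.32) and *Aldh1l1* (0.29) also rose there and *Glul* fell (-0.42). *Gja1* (-0.28), *Slc1a3* (-0.19), *Aldoc* (0.01), *Sox9* (0.10) and *Fgfr3* (0.18) were not called. Where *Tnc* rose most, in cortex at PWK 28, 2 of the astrocyte markers rose and 3 fell, the sums of 207361 to 221132 in KI and 204355 to 238842 in WT libraries overlapped, and *Gfap* was at 14031, 5846, 8135 and 9789 and 4062, 2553, 3114 and 2977 (1.52). At PWK 14 in cortex 2 of them rose and 1 fell.

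Of 10 microglial markers none was called in KI hippocampus at PWK 14 (2 had an unadjusted p under 0.05, and 1 was called without KI replicate 1) and 6 rose at PWK 28, with sums of 16592 to 20439 in KI and 13852 to 14731 in WT libraries. Of 8 markers of oligodendrocyte precursors, which also make *Vcan*, none was called in hippocampus at PWK 28, and 1 rose in cortex. Their sums at PWK 28 were 8075 to 9498 in KI and 7869.6 to 8043 in WT hippocampus and 6258 to 7356 and 6572 to 7516 in cortex. Of 10 oligodendrocyte markers 1 fell in KI cortex at PWK 28, with sums of 93765 to 122802 in KI and 113537 to 170789 in WT libraries beside *Hapln2*. Of 8 markers of meninges and fibroblasts, cells that make extracellular matrix, 3 rose and 2 fell in cortex at PWK 28 and in hippocampus at PWK 14, where 2 rose and 2 fell without KI replicate 1. Endothelial and mural, choroid plexus and neuron markers numbered 10, 8 and 10. Their calls were 2, 0 and 1 in KI cortex at PWK 14 and 0, 0 and 4 at PWK 28. Hippocampus gave 1, 0 and 1 at PWK 14 (2, 0 and 2 without KI replicate 1) and 1, 0 and 3 at PWK 28. No marker was listed at 0 in all libraries of a group.

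For 8 of the 10 genes, those whose pattern over the 16 group means was most like theirs are given, picked by Pearson's r of log2 values among 12809 other genes with a mean of at least 100. They share libraries and the large step from PWK 1 to 7, so r is a description only. *Hapln2* was closest to *Ermn* and *Sec14l5* (r = 1.00 and 1.00) and *Tnc* to *Col4a1* and *Mmgt1* (0.99 and 0.97). *Has3* was closest to *Fat4* and *Gm2061* (0.99 and 0.98), *Ncan* to *Mki67* and *Slc7a5* (0.98 and 0.98) and *Vcan* to *Cpsf2* and 1700021F05Rik (0.98 and 0.98). *Bcan* was closest to *Fam189a1* and *Dok6* (0.95 and 0.93) and *Acan* to *Pappa* and *E2f3* (0.94 and 0.94). *Tnr* had the weakest match of these 8, with *Bin1* and *Dock5* (0.82 and 0.82).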

How the data were processed

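Bulk RNA-seq libraries from frontal cortex and hippocampus of KI and WT mice were analysed from the deposited table, 4 in each of 16 groups. Per the labels, transcripts were quantified with Salmon 0.11.2 and scaled with DESeq2 1.19.11 in R 3.6.0, while the study's methods name other versions and another TruSeq kit. The authors imported the estimates with tximport and divided them by size factors, and the deposited values are these normalized counts, a signal that is not whole. Between 27.0% and 56.5% of low values per library lay within 0.1 of whole multiples of a library's step, where chance gives 20.0%, so reads were not recovered, depth is unknown, and a count model was not used. Gene names came from GENCODE vM21 (GRCm38), which matched 18420 of 18432 IDs. No column was left out.

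Values were analysed as log2(value + 1) in limma 3.58.1 (R 4.3.3) with a trended prior, on genes with a mean of at least 1 in the libraries of a comparison, with Benjamini-Hochberg adjustment over all genes tested and calls at an adjusted p under 0.05, two-sided. Each fit held only the libraries compared, without covariates, and the procedure was tested on simulated data. Fold changes of low genes are understated on this scale. Levels per kb were divided by the summed exon length. Alternatives were total-sum scaling, a pseudocount of 5, a minimum mean of 10 or none, 1 fit of all 64 libraries, a replicate block, a correction for GC content and length, and leaving out each library in turn.

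All 10 genes were named, with up to 2 called genes per direction of each pathway list with the largest fold change and, for each of the 10, the 2 genes most like it, which for *Hapln1* and *Hapln4* are not reported here. *Cyfip2*, region markers, markers moving with a result, *Hapln3*, and genes overlapping one of the 10 were also named. The 10 genes and the lists were chosen with earlier results of these data known. No 2 libraries were duplicates, the highest correlation between libraries being 0.989. Equal replicate numbers are not stated to mark 1 mouse in the sources used here. Deviations of same-number cortex and hippocampus libraries correlated over 0.1 in every pair of WT at PWK 1 and of KI at PWK 28, and not in every pair of the other groups. List results without hippocampal KI replicate 1 of PWK 14 were added after seeing the data, and no other library was left out for the lists.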

Additional observations from a re-analysis of the deposited data

Results flagged for a closer look

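In 12 of the 160 groups of 4 values (10 genes in 16 groups), 1 library lay apart from the other 3 by Dixon's criterion, where chance gives about 1 in 20. In cortex at PWK 1, WT replicate 2 had a *Tnr* value of 8989.8 (others 9856 to 9957) and KI replicate 2 a *Has3* value of 435 (others 338 to 344). In cortex at PWK 7, KI replicate 1 was low in *Hapln4* at 2865 (others 3494 to 3552) and high in *Tnc* at 181 (others 109.7 to 118). In cortex at PWK 14, KI replicate 1 was high in *Ncan* at 11557 (others 8789 to 9145), and at PWK 28 WT replicate 2 was high in *Has3* at 81.4 (others 47.1 to 50.4).

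In hippocampus at PWK 7, WT replicate 2 was high in *Bcan* at 8511 (others 7571 to 7725) and in *Ncan* at 7858 (others 6822 to 6849), and KI replicate 1 was high in *Tnc* at 399 (others 288 to 301). At PWK 14, KI replicate 1 had a *Vcan* value of 3787 (others 977 to 1246). At PWK 28, WT replicate 4 was low in *Vcan* at 834 (others 915 to 926) and WT replicate 2 high in *Hapln4* at 2689 (others 2264 to 2311).

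The KI effect differed between regions or ages in 6 interaction tests in limma, on the log2 scale. The *Ncan* effect at PWK 14 was larger in hippocampus than in cortex by 0.64 (adjusted p = 0.037), and the *Hapln4* effect at PWK 28 in hippocampus minus that in cortex was -0.51 (adjusted p = 0.0291, and 0.243 in 1 fit of all 64 libraries). From PWK 7 to 14 the *Hapln4* effect in cortex grew by 0.68 (adjusted p = 0.0378), a call lost with a replicate block (0.0556) and in 1 fit of all 64 libraries (0.15). Over the same weeks in hippocampus the effects on *Ncan*, *Tnc* and *Acan* grew by 0.93, 2.55 and 2.14 (adjusted p = 0.000768, 0.000626 and 0.00107).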

How the results depend on the processing

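Over the 10 genes in 22 comparisons, 3779 alternative values were computed for 220 results. None reversed the direction of a called value, 114 lost a call and 30 gained one. A pseudocount of 5 and a minimum mean of 10 changed no call, and total-sum scaling changed 3 calls. In 1 fit of all 64 libraries, which shares 1 estimate of the spread, the number of the 10 genes called moved from 1 to 2 between KI and WT cortex at PWK 14, from 4 to 7 in hippocampus at PWK 14, from 5 to 3 and from 6 to 2 for WT PWK 28 against 7 in cortex and hippocampus, and from 8 to 4 between WT regions at PWK 7. In the same fit the interactions moved from 1 to 2 and from 1 to 0 for region at PWK 14 and 28, from 1 to 0 and from 0 to 1 for cortex from PWK 7 to 14 and from 14 to 28, and from 3 to 5 and from 0 to 3 for hippocampus. The calls gained between KI and WT in it were *Acan* in cortex at PWK 14 (adjusted p = 0.0219) and *Hapln4* (0.00361), *Vcan* (0.00249) and *Has3* (0.0003) in hippocampus, and *Has3* in hippocampus at PWK 28 was lost (0.0564). The cause was not tested.

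With 1 library left out, the region interactions ran from 0 to 2 called genes at PWK 14 and from 0 to 2 at PWK 28, the cortex interactions from 0 to 1 and from 0 to 2, and the hippocampus interactions from 3 to 4 and from 0 to 1. Between KI and WT, cortex gave 1 throughout at PWK 14 and 5 to 7 at PWK 28, and hippocampus gave 3 to 5 and 5 to 7 at these ages.

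Equal replicate numbers are not stated to mark 1 mouse, and the comparisons do not use them as pairs. Deviations from the group means of cortex and hippocampus libraries of the same number correlated at a mean of 0.14, against -0.046 for other numbers, with 17 of 32 pairs over 0.1 (-0.073 to 0.462), and those of KI and WT at 0.026 against -0.009, with 10 of 32. Same-number regions correlated over 0.1 in all 4 pairs of WT at PWK 1 (0.102 to 0.256) and of KI at PWK 28 (0.239 to 0.443), and in 3 of 4 pairs of KI at PWK 1 and 14. Between the WT regions at PWK 1, the block called 8 genes, as did the fit without it. The region interaction at PWK 28 also holds WT pairs, of which none was over 0.1. With the replicate block the *Hapln4* interaction in cortex from PWK 7 to 14 was lost (adjusted p = 0.0556), which took the count from 1 to 0. Of the other 219 results the block ended 3 calls, *Has3* in KI against WT hippocampus at PWK 28 (0.0519), *Vcan* in WT hippocampus at PWK 28 against 7 (0.0633) and *Hapln4* between WT regions at PWK 7 (0.0702). It added *Hapln2* in KI against WT cortex at PWK 28 (0.0311) and *Hapln1* in WT hippocampus at PWK 28 against 7 (0.0206).

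Depth is unknown, so precision is that of 4 libraries a group, and no counting interval was given.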
